A study of Penicillium oxalicum with 6 samples.

Results

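The 7 xylanase genes POX08484, POX00063, POX06783, POX05916, POX06601, POX08990 and POX04274 of the fungus Penicillium oxalicum were followed in mycelium kept on cellulose, out of 9284 genes listed in at least 1 library. They were chosen by identifier, as genes recalled from published work on this fungus as xylanases, with earlier results of these data known. The deposited files pair no identifier with a name or product. The series holds 3 RNA-seq libraries of the strain MuPOX00158, a mutant of the gene POX00158 that the series describes as a phosphokinase gene, and 3 libraries of the strain Ku70, which the labels call a Ku70 mutant. Its stated aim was to learn how POX00158 bears on transcript levels of cellulase and xylanase genes. Both strains were grown as spores on potato-dextrose agar and about 1 g of hyphae was then shaken at 28 °C for 24 h in liquid medium with 1% Avicel, a microcrystalline cellulose. The labels do not say whether MuPOX00158 also carries the Ku70 change or how many transformants it stands for. Nor do they tell if replicate libraries are separate cultures, and p-values therefore cover only the variation among these libraries, part of which may be technical.

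Xylan is the main hemicellulose of many plant cell walls, a chain of xylose units with side groups. Endoxylanases are secreted enzymes that cut within this chain, and filamentous fungi usually carry several of them. In many such fungi, genes of xylanases and cellulases are switched on together when the fungus meets plant cell wall material, and cellulose without added xylan can be enough to raise xylanase transcripts.

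POX00158 had 4, 8 and 9 reads in MuPOX00158 replicates 1, 2 and 3 and 1067, 569 and 763 reads in the Ku70 replicates, as the strain labels call for. Libraries held 2983815 to 3259601 expected counts, the estimated reads assigned to genes, and 8677 to 8750 listed genes. None of the 7 xylanase genes had a fractional count in any library, and only 32 of the 9284 listed genes had one in at least 1 library. The counts thus gave no sign of reads split with a similar gene. How ambiguous reads were handled is not stated. All 7 were listed in all 6 libraries and passed the filter on low counts.

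All 7 xylanase genes were lower in MuPOX00158 than in Ku70, and for each of them every MuPOX00158 library lay below every Ku70 library. Of the 7757 genes tested, 24.2% also lay lower in MuPOX00158 without overlap, in log2 counts per 1000000 reads. Their summed level dropped 5.19-fold, from 14364 ± 1893 to 2765 ± 673 FPKM (SD, n = 3 each), where FPKM is reads per kilobase of gene per 1000000 reads. The loss was uneven. POX08990, POX00063 and POX06783 kept 7.37 to 10.3% of their Ku70 level, POX06601, POX08484 and POX04274 kept 17.4 to 21.6%, and POX05916 kept 38.5%. In these bulk libraries, fewer hyphae expressing a gene and less transcript per hypha cannot be told apart.

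The summed xylanase level was 14240, 12536 and 16316 FPKM in Ku70 replicates 1, 2 and 3 and 2185, 3504 and 2607 FPKM in the MuPOX00158 replicates. The strains did not overlap, and the lowest Ku70 library lay well above the highest MuPOX00158 library. As a share of all length-corrected expression the family took 1.54 ± 0.209% in Ku70 against 0.268 ± 0.0682% in MuPOX00158 (SD, n = 3). The log2 difference in summed FPKM was -2.40 (p = 0.1 in a two-sided exact permutation test, which cannot go lower with 3 against 3 libraries).

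**Figure D1:**
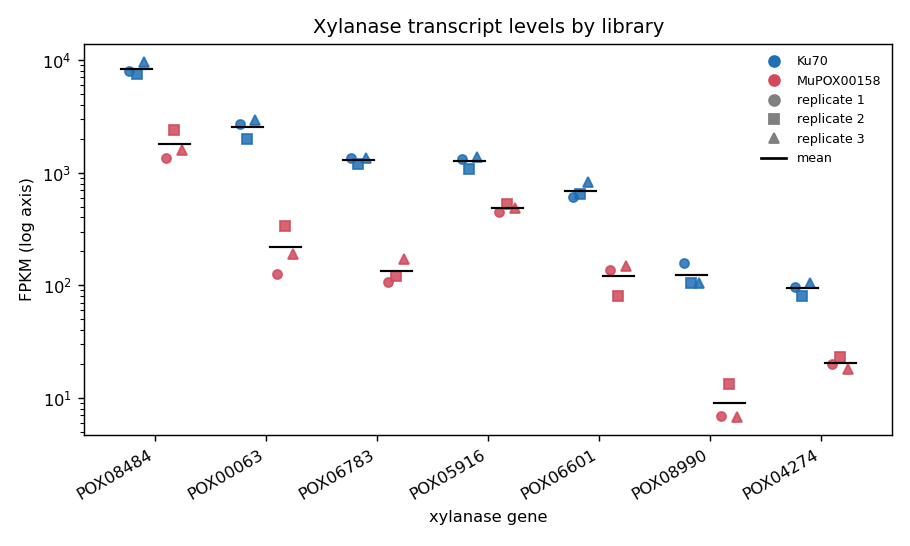
FPKM of each of the 7 xylanase genes (log axis) in the 3 Ku70 and 3 MuPOX00158 libraries, ordered by mean level in Ku70, with marker shapes for replicates and black lines for strain means. Every MuPOX00158 point sits below every Ku70 point of its gene, and the gap is narrowest for POX05916, whose means were 1258 and 485 FPKM.

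POX08484 had the highest level of the family in every library of both strains. It stood at 8026, 7437 and 9648 FPKM in the Ku70 replicates, which placed it at rank 6, 8 and 4 of all listed genes by FPKM. In MuPOX00158 it stood at 1346, 2412 and 1585 FPKM, or rank 117, 40 and 85. Thus the leading xylanase gene moved from the 10 highest genes of each Ku70 library to outside them in each MuPOX00158 library, while MuPOX00158 replicate 2 stayed closest to Ku70. The log2 fold change, MuPOX00158 over Ku70, was -2.30 (SE 0.32, edgeR adjusted p = 0.00115), and the lowest Ku70 value was 3.08 times the highest MuPOX00158 value.

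POX00063 was second in Ku70, at 2697, 1987 and 2909 FPKM. In MuPOX00158 it had 126, 334 and 190 FPKM, a spread of 2.65-fold between the lowest and the highest library, which was the widest of the family in either strain. Even so the strains were far apart, with the lowest Ku70 value 5.95 times the highest MuPOX00158 value. The log2 fold change was -3.61 (SE 0.40, adjusted p = 0.000358).

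POX06783 was nearly constant among the Ku70 libraries, at 1341, 1197 and 1347 FPKM, and had 108, 120 and 171 FPKM in MuPOX00158. Its coefficient of variation in Ku70 was 6.54%, the lowest of the 7 genes in that strain. The log2 fold change of -3.36 (SE 0.22, adjusted p = 2.04e-05) was the one with the smallest adjusted p in the family. The lowest Ku70 library was 7.01 times the highest MuPOX00158 library.

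POX05916 had the smallest loss. It was at 1312, 1078 and 1383 FPKM in Ku70, beside POX06783 in level, and at 443, 521 and 490 FPKM in MuPOX00158. Its libraries were the most even of the family in MuPOX00158, with a coefficient of variation of 8.15%. The log2 fold change was -1.45 (SE 0.19, adjusted p = 0.000754), and the lowest Ku70 value was 2.07 times the highest MuPOX00158 value.

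POX06601 had 611, 650 and 819 FPKM in Ku70 and 136, 79.6 and 147 FPKM in MuPOX00158. It differed from the other members in where its lowest value fell. MuPOX00158 replicate 2, in which 5 of the 7 genes had their highest MuPOX00158 level, held the lowest level of POX06601. The log2 fold change was -2.60 (SE 0.27, adjusted p = 0.00024).

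POX08990 and POX04274 were the weakly expressed members. POX08990 had 157, 106 and 104 FPKM in Ku70 and 6.86, 13.3 and 6.78 FPKM in MuPOX00158, the largest fold change of the family (log2 fold change -3.82, SE 0.31, adjusted p = 6.69e-05). These MuPOX00158 values rest on 19, 40 and 19 reads. The exact 95% Poisson interval of 19 reads runs from 11.4 to 29.7 and that of 40 reads from 28.6 to 54.5, for counting error only. POX04274 had 96.6, 80.5 and 105 FPKM in Ku70 and 19.9, 23.3 and 17.9 FPKM in MuPOX00158, with a log2 fold change of -2.27 (SE 0.17, adjusted p = 3.78e-05). Here no library stood apart in either strain.

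All 7 genes were called lower by edgeR's quasi-likelihood test, as were 18.6% of the 7757 genes tested, of which 37.2% changed in either direction. Because the members were chosen with earlier results of these data known, these counts describe them and do not test the family as a set. All 7 fell by more than 2-fold, 6 by more than 4-fold and 3 by more than 8-fold, where 12.4, 4.14 and 1.59% of tested genes did. The median log2 fold change was -2.60 over the family and 0.00 over all tested genes. Among tested genes, 56 had a lower log2 fold change than POX08990, 247 had a lower one than POX08484 and 587 had a lower one than POX05916. All 7 genes also lay lower in MuPOX00158 without overlap in log2 CPM (counts per 1000000 reads), which held for 24.2% of tested genes. Restricting the background to the 2223 tested genes with a mean of at least 100 CPM gave 22.4% called lower.

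The order of the members by FPKM changed between the strains. In Ku70 it ran POX08484, POX00063, POX06783, POX05916, POX06601, POX08990, POX04274. POX06783 and POX05916 overlapped in range there, and so did POX08990 and POX04274, while the other neighbours in the order did not. In MuPOX00158 the order ran POX08484, POX05916, POX00063, POX06783, POX06601, POX04274, POX08990. POX05916 thus moved from the fourth place to the second, above POX00063 in every MuPOX00158 library. POX04274 lay above POX08990 in all 3 of these libraries without overlap, whereas POX00063 and POX06783, and POX06783 and POX06601, overlapped in range. Across the 7 genes, Spearman's rho between the mean Ku70 FPKM and the log2 fold change was -0.07, as a description over genes of the same libraries. The effective length implied by the deposited counts and FPKM, from 797 bases in POX06783 to 1521 bases in POX06601, had a rho of 0.21 with the log2 fold change.

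The make-up of the xylanase transcripts shifted accordingly. The share of POX00063 in the summed xylanase FPKM was 18.9, 15.9 and 17.8% in the Ku70 replicates and 5.77, 9.54 and 7.30% in the MuPOX00158 replicates. The share of POX05916 was 9.21, 8.60 and 8.48% in Ku70 and 20.3, 14.9 and 18.8% in MuPOX00158. One share was thus lower and the other higher in every MuPOX00158 library, and POX05916 took the second place that POX00063 held in Ku70. Set against the same sum, 94.2% of all tested genes did not overlap between strains.

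POX08484 made up 58.3 ± 1.66% of the family in Ku70 against 63.7 ± 4.44% in MuPOX00158 (SD, n = 3), also without overlap. The share of POX06783 went from 9.07 ± 0.712% to 4.97 ± 1.56% and that of POX08990 from 0.860 ± 0.232% to 0.318 ± 0.0606%. The shares of POX06601 (4.83 ± 0.477 and 4.70 ± 2.13%) and POX04274 (0.655 ± 0.0201 and 0.754 ± 0.136%) overlapped between strains. Shares of 5 members did not overlap, each with the lowest attainable p of 0.1 in a two-sided exact permutation test, and the other two had p = 1 for POX06601 and p = 0.2 for POX04274. Relative to the summed xylanase FPKM, 94.2% of all tested genes did not overlap between strains, a high background because the sum itself dropped. Shares of 1 library sum to a fixed total, so the members' shares do not move independently.

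**Figure D2:**
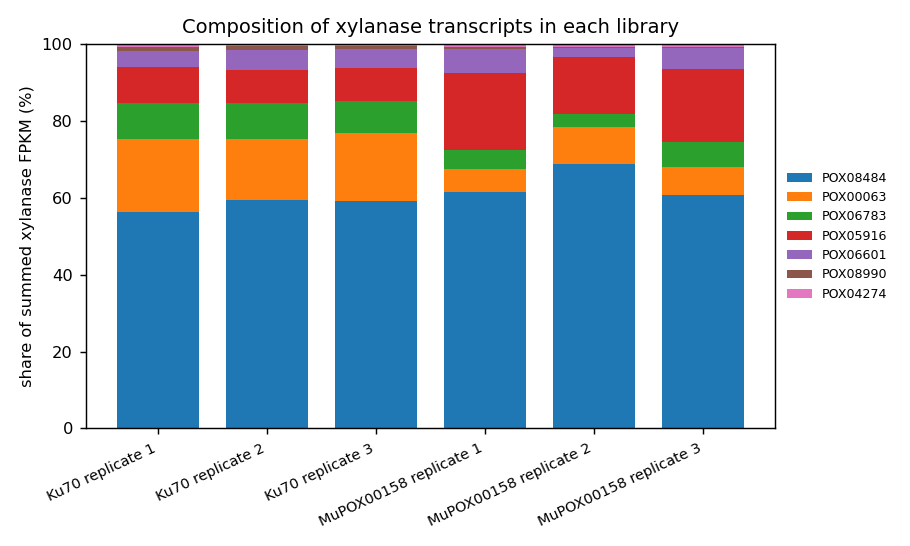
Stacked bars give the percent of the summed xylanase FPKM taken by each of the 7 genes in each library. POX08484 holds 56.4 to 59.3% in the Ku70 bars and 60.8 to 68.8% in the MuPOX00158 bars, the POX00063 part shrinks and the POX05916 part widens.

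Differences in loss were tested within libraries, as the log2 ratio of 2 members, which does not depend on library scaling. Of the 21 pairs, 13 had ratios that did not overlap between strains. Over all pairs of a member with any tested gene, 94.0% did not overlap. The smallest exact permutation p is 0.1 and becomes 0.161 after Benjamini-Hochberg adjustment over the 21 pairs, so no pair could pass this test. POX05916 lost less than each of the other 6 members without overlap. The ratio of POX08990 to POX05916 dropped by 2.44 on the log2 scale (SD 0.47 in MuPOX00158 and 0.34 in Ku70, n = 3 each), the largest shift of any pair, and that of POX04274 to POX05916 dropped by 0.84 (SD 0.17 and 0.02).

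Among POX08990, POX00063 and POX06783 all ratios overlapped between strains, as they did among POX06601, POX08484 and POX04274. The ratio of POX00063 to POX08484 dropped by 1.37 on the log2 scale (SD 0.29 in MuPOX00158 and 0.17 in Ku70), and that of POX06783 to POX08484 dropped by 1.04 (SD 0.56 and 0.14). The ratio of POX08484 to POX04274 shifted by -0.06 (SD 0.31 and 0.09), although these genes differ in level by more than any other 2 members in Ku70. The 3 ratios that spread most among MuPOX00158 libraries all involved POX06601, whose lowest library was the one in which POX08484, POX00063 and POX08990 were highest. The ratios of POX00063 and POX08990 to POX06601 overlapped between strains, at mean shifts of -1.08 and -1.25.

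Ratios to POX08484 itself did not overlap between strains for 4 of the other 6 members and for 92.7% of all tested genes.

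Libraries of a strain did not order all members alike. MuPOX00158 replicate 2 held the highest MuPOX00158 level of 5 members and replicate 3 that of POX06783 and POX06601. In Ku70, replicate 3 held the highest FPKM of 6 members and replicate 2 the lowest FPKM of 5. In CPM, POX08484 was instead lowest in Ku70 replicate 1 (6905, against 7016 in replicate 2). POX06783 was highest in Ku70 replicate 1 in CPM (1069, against 1066 in replicate 3). Without MuPOX00158 replicate 2 the log2 difference in summed xylanase FPKM was -2.58, and all 7 genes were still called lower.

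Of the other enzyme lists, cellulase genes, whose products cut cellulose chains, came closest to the xylanase genes in their loss. Like the xylanase genes, the cellulase, beta-glucosidase and amylase genes were listed by identifiers recalled from published work, with earlier results of these data known. Of 10 listed cellulase genes 9 were called lower and none higher, where 18.6% of tested genes were called lower and as many higher, with a median log2 fold change of -1.90. The 2 with the highest level in Ku70, POX04786 (log2 fold change -2.85, SE 0.38) and POX01166 (-1.90, SE 0.30), both fell. POX07535 had the largest loss, of -3.80 (SE 0.30), close to that of POX08990, whereas POX02740 was at -0.60 and did not pass (adjusted p = 0.0706). The count of cellulase genes called lower was 7 without MuPOX00158 replicate 1 or 3 and 10 without MuPOX00158 replicate 2, while that of xylanase genes was 7 in each case. Over all tested genes, 1446 were called lower in the main fit. Without MuPOX00158 replicate 1, 2 or 3 this number was 997, 1272 or 978.

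Relative to the summed cellulase level, the summed xylanase level was lower in every MuPOX00158 library. The statement holds for the sums only. Log2 fold changes of single genes ran from -3.82 to -1.45 in the xylanase list and from -3.80 to -0.60 in the cellulase list. The ratio of summed xylanase to summed cellulase FPKM was 0.430, 0.469 and 0.446 in the Ku70 replicates and 0.362, 0.341 and 0.325 in the MuPOX00158 replicates. These values did not overlap, and they spread little within a strain although the sums themselves spread widely. Relative to the summed xylanase FPKM, 94.2% of all tested genes did not overlap between strains. The log2 difference was -0.39 (SD 0.08 in MuPOX00158 and 0.06 in Ku70, n = 3), with the lowest attainable p of 0.1 in a two-sided exact permutation test. The log2 difference was -0.90 without POX08484 and POX04786, which had the highest mean FPKM of each list in Ku70. This is more than 1.5 times as large. Without POX08484 the log2 difference in summed xylanase FPKM was -2.61, against -2.40 with it. POX04786 had a larger loss than POX08484 (log2 fold change -2.85, against -2.30 for POX08484). In MuPOX00158 it no longer led its list, at a mean of 1632 FPKM against 2216 FPKM for POX05587.

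Genes of beta-glucosidases, which split cellobiose to glucose, lost less. Of 7 listed, 4 were called lower and 1 higher, against 18.6% of tested genes in each direction, and the median log2 fold change was -0.65. The number called lower was 3 with the replicate block and 2 without MuPOX00158 replicate 1, MuPOX00158 replicate 3 or Ku70 replicate 3. Of all tested genes, 1457 were called lower with the block and 997, 978 and 1168 without those libraries in turn, against 1446 in the main fit. The xylanase to beta-glucosidase ratio of summed FPKM was 4.29, 3.96 and 4.03 in Ku70 and 1.18, 1.55 and 1.35 in MuPOX00158, without overlap (two-sided exact permutation p = 0.1). Set against the xylanase sum, 94.2% of all tested genes did not overlap either. POX00968 was the one listed beta-glucosidase gene with a loss in the range of the xylanase genes (log2 fold change -3.12, SE 0.31), at a Ku70 level of 42.2 ± 14.8 FPKM (SD, n = 3). Of 3 amylase genes, whose products degrade starch, none was called lower and 1 was called higher. POX03890, the gene of an amylase regulator, did not pass (log2 fold change -0.34, SE 0.41, adjusted p = 0.541 in edgeR).

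**Figure D3:**
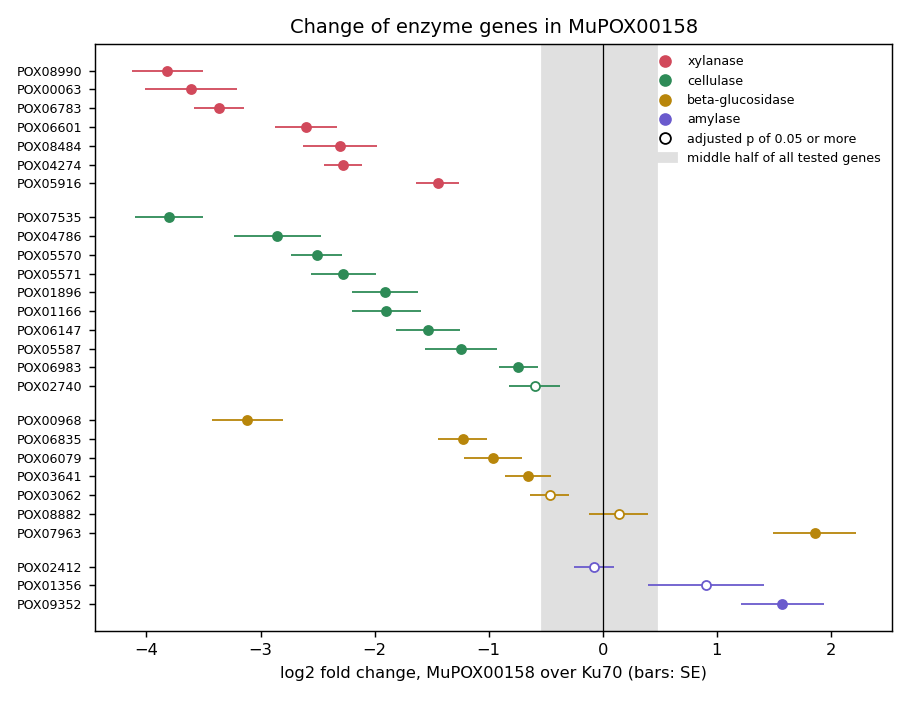
Log2 fold change of MuPOX00158 over Ku70 with its SE for the listed xylanase, cellulase, beta-glucosidase and amylase genes, with open circles for genes that did not pass and a grey band for the interquartile range of all tested genes, from -0.53 to 0.476. All 7 xylanase genes lie between -3.82 and -1.45, outside the band.

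**Figure D4:**
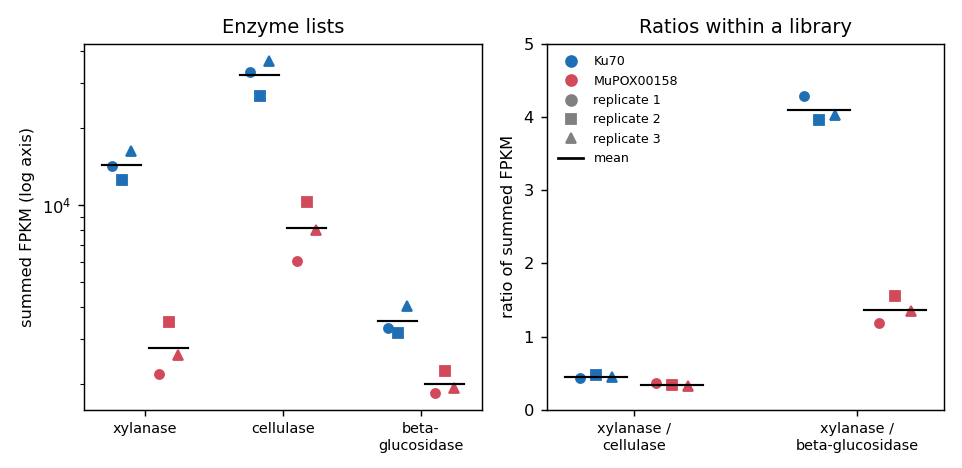
Summed FPKM of 3 enzyme lists per library (left, log axis) and the ratios of the xylanase sum to the cellulase and beta-glucosidase sums per library (right), with marker shapes for replicates and lines for means. The xylanase to cellulase ratio had means of 0.448 in Ku70 and 0.343 in MuPOX00158, and the xylanase to beta-glucosidase ratio had means of 4.09 and 1.36.

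Genes with identifiers next to those of the xylanase genes were examined because such genes may lie side by side, although no positions were used and the numbering is not taken as one. Within 5 identifiers on either side, 16 of 52 tested genes were called lower and 6 higher, or 30.8% lower against 18.6% of all tested genes. Within 10 identifiers this share was 19.8%, near the background. For the identifiers directly above and below, a window chosen after the data were seen, 7 of 13 tested genes were called lower and none higher. The strand used in counting is not stated, so reads of overlapping neighbours cannot be told apart.

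The lower neighbours belonged mainly to 3 members. Around POX08484, 5 of 7 tested genes within 5 identifiers were called lower, where 18.6% of all tested genes were called lower and as many higher. They were POX08480, POX08483, POX08485, POX08486 and POX08487, with log2 fold changes from -2.32 to -0.51, of which POX08483 (-0.93) and POX08486 (-0.51) fell by less than 2-fold. POX08488 was called higher (1.91). POX08485 was itself highly expressed, at 5868 ± 1003 FPKM in Ku70 and 1232 ± 209 FPKM in MuPOX00158 (SD, n = 3). It had a log2 fold change of -2.32 (SE 0.29). This is close to the -2.30 of POX08484. Around POX06601 the 2 identifiers on either side, POX06599, POX06600, POX06602 and POX06603, were called lower (log2 fold changes from -2.95 to -1.68), while POX06604, POX06605 and POX06606 were called higher.

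Around POX04274, POX04275, POX04276 and POX04278 were lower, with log2 fold changes of -1.43, -2.64 and -1.67. Beside POX05916, POX05915 went from 4400 ± 889 to 1210 ± 258 FPKM (SD, n = 3 each; log2 fold change -1.93, SE 0.30), a larger loss than that of POX05916 itself. Of the neighbours of POX00063, POX06783 and POX08990, the 3 members with the largest losses, 1 each was called lower. The neighbours carry no gene name in these sources and are given for their place beside a member.

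The genes most like the family in profile were sought over the 6 libraries, by Euclidean distance between a gene's mean-centred log2 CPM and the mean of the members, among 6909 genes with a mean of at least 10 CPM. The nearest genes outside the family were POX04137 (distance 0.15, log2 fold change -2.79) and POX07484 (distance 0.21, log2 fold change -2.87). POX04137 had 87.1, 65.5 and 87.5 FPKM in Ku70 and 9.84, 13.8 and 12.6 FPKM in MuPOX00158. In FPKM it had the dip in Ku70 replicate 2 and the high value in MuPOX00158 replicate 2 that most xylanase genes showed. Both were nearer to the mean profile than any single xylanase gene, since the members lie at distances of 0.66 (POX08484) to 1.66 (POX05916) from their own mean. Of the 10 listed cellulase genes, POX05570 was the sixth and POX04786 the ninth nearest gene. The others were farther, from rank 54 (POX05571) to rank 1176 (POX02740). By Pearson correlation in place of distance, POX05570 ranked 5 and POX04786 ranked 57.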

How the data were processed

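The authors deposited 1 table per library with an expected count and an FPKM value per gene, per the file headers. The submitters' processing notes name DESeq2, BWA 0.7.10-r789, RSEM 1.2.12 and Bowtie2 2.1.0, without roles. Neither the genome build nor the annotation or the strandedness is given in the sources used here. No gene is listed at 0, and the lowest expected count was 0.5, so a gene missing from a library was taken as 0. A RefSeq table of this species was not used for names or positions: matched by number, gene lengths had a Spearman correlation of 0.01 over 3734 genes.

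The members and lists were chosen with earlier results of these data known. Named were the members, POX00158, selected list genes, the 2 nearest profiles and called neighbours. Replicates were numbered in order of deposition. Title letters (F, S, T) are shared by both strains, but no label says what a letter marks. Deviations of same-letter libraries correlated at 0.15, 0.219 and 0.159, and those of different letters at -0.177 to 0.0336. The letters were therefore tried as pairs, as a replicate block, in an alternative. The main fit did not use them.

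Rounded expected counts entered edgeR 4.0.16 under R 4.3.3 (filterByExpr with a minimum count of 10 and a minimum total of 15, TMM, quasi-likelihood test, Benjamini-Hochberg adjustment over 7757 genes, threshold 0.05). SE is the log2 fold change over the square root of F. Alternatives were other scalings, no filter, DESeq2 1.42.0, limma 3.58.1 on log2(FPKM + 1) or log2(FPKM + 0.1), the block and each library left out. The edgeR and limma fits were tested on simulated data with the same assumed spread for all genes. There edgeR recovered 64% of 2-fold and 100% of 4-fold changes, with 2.96% of its calls false. Limma on log2(FPKM + 1) recovered 55% and 100%, with 1.90% false. Ratios and shares used deposited FPKM with exact permutation tests (scipy 1.17.1). No sequence of these genes was used here.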

Additional observations from a re-analysis of the deposited data

How the results depend on the processing

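All 7 xylanase genes were called lower in all 13 other settings: other scaling, no filter, DESeq2, limma on FPKM, the replicate block and each library left out. Across the 98 comparisons of a member with an alternative, 1 scaling added after the data were seen included, none lost its call or changed sign, and log2 fold changes ran from -4.08 to -3.33 for POX00063 and from -1.52 to -1.37 for POX05916. With the replicate block 2909 genes changed, against 2888 without it, and the block changed no call of a xylanase or cellulase gene, while beta-glucosidase genes called lower went from 4 to 3, with POX03641 no longer called. Changed genes split into 1442 higher and 1446 lower with TMM and 1603 higher and 1207 lower with limma on log2(FPKM + 1), but 1207 higher and 1467 lower where FPKM was first rescaled to 1000000 per library. Leaving out 1 library gave 1984 to 3323 changed genes, 7 to 10 cellulase genes and 2 to 5 beta-glucosidase genes called lower, a log2 difference in summed xylanase FPKM from -2.58 to -2.24 and in the xylanase to cellulase ratio from -0.43 to -0.35. Member shares without overlap numbered 5 to 7 and pairs without overlap 13 to 18, and fewer libraries can never lower such a number. The xylanase to cellulase difference was -0.90 without POX08484 and POX04786, the leading genes of each list in Ku70. Neighbours called lower made up 30.8% within 5 identifiers, 19.8% within 10 and 53.8% within 1, and of the 10 nearest profiles 4 were shared with the 10 by Pearson correlation; the cause was not tested. Depth limits POX08990 most, with 19 reads in 2 MuPOX00158 libraries.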
